A study of Mus musculus with 6 samples.

Results

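The genes described here are 50 mouse genes of the interferon response outside the guanylate-binding protein cluster. The rule takes them by name as interferon-induced genes, together with the Irf and Stat factors and the receptor chains of the pathway, and uses no difference between the groups. The list was drawn up with earlier results of these data known. All 50 are among the 25655 genes listed for each library. The 44 with at least 1 CPM, reads scaled to a fixed library total, in 3 or more of the 6 libraries were tested, as part of a fit over 10590 genes. The libraries were made from CD8 T cells of the spleen of C57BL/6 females. One group is labelled as a knockout of Utx (Utx KO, 3 libraries) and the other as wild type (WT, 3 libraries). Naive cells, low in CD44 and high in CD62L, were activated with plate-bound antibodies to TCR-β (3 µg/ml) and CD28 (1 µg/ml) plus interleukin 2 (10 ng/ml) for 2 days. They were then kept in interleukin 2 alone for 3 days, so RNA was taken at day 5. The labels name no added interferon. The allele, the means of deletion, the ages of the mice and whether the replicates are separate animals are not known from the labels, so p-values measure only the spread between these libraries.

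Type I interferons bind the receptor made of Ifnar1 and Ifnar2. This activates Jak1 and Tyk2, and a complex that holds Stat2 and Irf9 then binds the interferon-stimulated response element (ISRE) in promoters. Interferon gamma, which activated CD8 T cells secrete, binds Ifngr1 and Ifngr2, acts through Jak1 and Jak2, and works at the gamma-activated site (GAS). Utx, encoded by Kdm6a, removes methyl groups from lysine 27 of histone H3, a modification linked to gene silencing.

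Promoters of several genes whose RNA values are given further on hold these elements, and their sequences are printed so that the wording of the element can be compared. RefSeq promoter windows (GRCm38.p6) were found for 39 of the 50 genes. In the 250 bases before the start, the ISRE core was searched on both strands as a pair of GAAA with any 2 bases between them. The GAS core was searched as TTC and GAA with any 3 bases between them, which reads the same on both strands. The first was present for 13 of 39 genes (33.3%), against 936 of 27025 genes with a window (3.46%). The second was present for 11 of 39 (28.2%), against 2197 of 27025 (8.13%). By single window the shares were 28.3% of 46 and 2.98% of 32851 for the ISRE core, and 23.9% and 7.02% for the GAS core. These are matches of letters and not measured binding. Capitals mark the bases of the cores, and overlapping cores are merged. The stretches run 5′ to 3′ along the gene's strand.
Isg15 (chr4:156200860-156200911, minus strand): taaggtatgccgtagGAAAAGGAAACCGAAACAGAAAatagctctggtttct
Oas3 (chr5:120777710-120777749, minus strand): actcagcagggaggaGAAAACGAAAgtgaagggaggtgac
Ifit1 (chr19:34640770-34640828, plus strand): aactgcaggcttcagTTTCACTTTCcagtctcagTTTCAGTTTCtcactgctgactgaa
Trim30a (chr7:104465205-104465244, minus strand): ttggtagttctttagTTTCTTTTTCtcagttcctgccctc
Igtp (chr11:58199496-58199546, plus strand): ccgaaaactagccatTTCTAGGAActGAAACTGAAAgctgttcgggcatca
Irgm2 (chr11:58214887-58214937, plus strand): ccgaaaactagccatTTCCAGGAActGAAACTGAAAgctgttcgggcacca
Isg20 (chr7:78913336-78913374, plus strand): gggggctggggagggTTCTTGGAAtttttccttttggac
Samhd1 (chr2:157135308-157135346, minus strand): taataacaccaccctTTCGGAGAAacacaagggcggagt
Irf1 (chr11:53769909-53769947, plus strand): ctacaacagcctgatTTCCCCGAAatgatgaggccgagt
Ifnar2 (chr16:91372554-91372592, plus strand): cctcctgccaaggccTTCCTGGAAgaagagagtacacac
Isg15 carries 3 overlapping ISRE cores and Ifit1 carries 2 separate ones. In Igtp and Irgm2, which neighbour each other on chromosome 11, a GAS core stands 2 bases before an ISRE core. Their printed stretches are identical at 49 of 51 bases and differ by T19C and T49C, counted from the 5′ end of the stretch with the Igtp base first.

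Utx KO cells carried less RNA of several interferon-stimulated genes, by more than 1 log2 unit for Isg20 and Zbp1 and by less for the others. Of the 44 tested genes, 12 fell and 1 rose in Utx KO (limma, adjusted p under 0.05 over all 10590 genes). Over all tested genes, 5.51% fell and 5.28% rose, and the counts by role, promoter element and level further on are to be read beside these shares. The shares cover tested genes of every level, and shares of genes matched in level were not computed. The falling genes were Isg20, Zbp1, Oas3, Irf7, Isg15, Iigp1, Xaf1, Samhd1, Ifi47, Sp100, Trim30a and Parp14, and the rising gene was Ifnar2. Leaving out Utx KO replicate 2, WT replicate 1 or WT replicate 3 left 7 falls each time, and DESeq2 on recovered reads also gave 7. Isg15, Irf7, Xaf1, Trim30a and Parp14 were the calls that DESeq2 did not make (DESeq2 adjusted p from 0.116 to 0.268). The median log2 fold change over the 44 was −0.27, with a range from −1.75 to 0.56, beside a median of 0.01 over all tested genes. Every Utx KO library lay below every WT library for 19 of the 44 genes and above for 3, where 12.6% and 14.0% of all tested genes did so. Summed over all 50 genes, the level was 2849, 2748 and 2774 CPM in Utx KO replicates 1, 2 and 3, and 3450, 3203 and 3274 CPM in WT replicates 1, 2 and 3. In bulk libraries, fewer responding cells and less RNA per cell cannot be told apart.

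**Figure D1:**
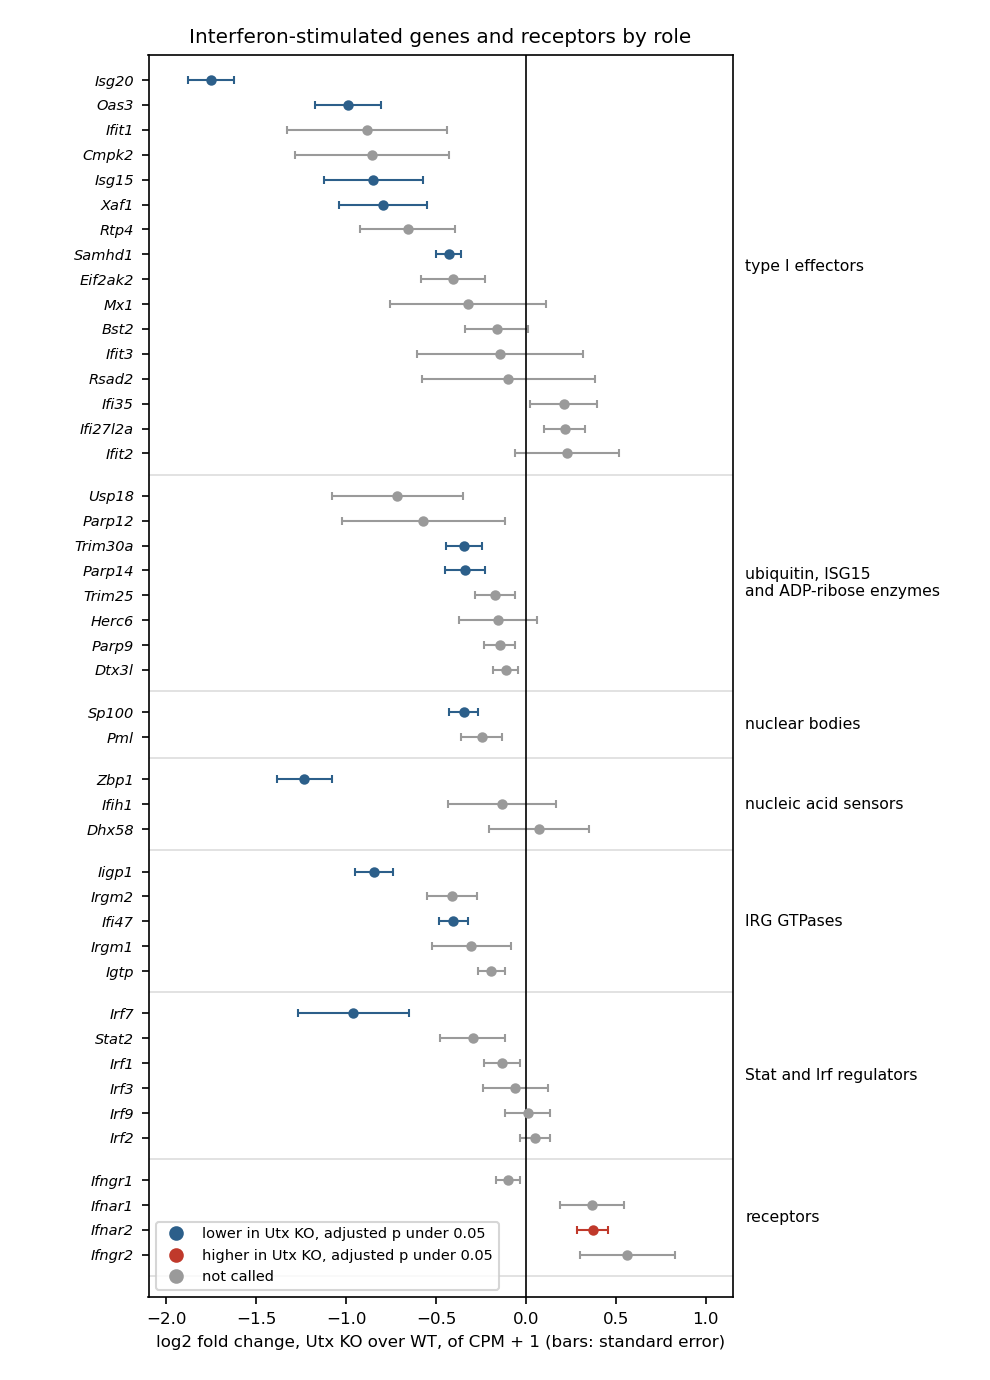
Log2 fold change of Utx KO over WT on the log2(CPM + 1) scale for the 44 tested genes, grouped by role; points are fitted values, bars their standard errors, and colour marks calls at an adjusted p under 0.05. Effector, enzyme, nuclear body and IRG genes lie mostly left of 0, 5 of 6 Stat and Irf genes between −0.30 (Stat2) and 0.05 with Irf7 at −0.96, and 3 of the 4 receptor genes right of 0.

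Recovered totals were 1619085 to 2517655 reads per Utx KO library and 1827703 to 2529113 per WT library. A gene with no read could still lie at up to 1.19 to 1.85 CPM (3 reads of the total, counting error only). The libraries hold reads from the 3′ end of each transcript, about 1 per molecule, so CPM compares genes without scaling by length. For Kdm6a the Utx KO libraries held 27.8, 39.4 and 31.5 CPM, and the WT libraries 44.3, 49.3 and 53.6 CPM (log2 fold change −0.57, SE 0.15, limma adjusted p = 0.0123). That call was lost without Utx KO replicate 1 (0.0554), WT replicate 2 (0.0528) or WT replicate 3 (0.0708), with DESeq2 (0.0708) and without the mean-variance trend of limma (0.120). The deleted part of the gene is not known here, and a 3′ tag outside it checks nothing. Of 6 CD8 T cell markers, Cd3d, Cd3e and Cd8b1 rose in Utx KO, Cd3g and Cd8a were not called, and Trac was listed at 0 in all 6 libraries. Their sum was 1712 to 1748 CPM in Utx KO and 1407 to 1516 CPM in WT. CD8 T cells express Trac, so a listed 0 may mean a gene that was not counted. For markers of 6 other cell types, sums in Utx KO and WT were 0.571 to 1.85 and 2.77 to 5.47 CPM over 6 B cell markers, 7.94 to 12.4 and 7.11 to 8.76 CPM over 7 myeloid markers, and 0 to 2.47 and 0 to 1.98 CPM over 4 dendritic markers. For CD4 T cells they were 11.12 to 13.11 and 11.52 to 17.51 CPM over 3 markers, and for 2 NK and 3 erythroid markers at most 1.85 CPM. Of the CD4 T cell markers, Cd4 was listed at 0 in all libraries. Foxp3 was at 7.31 and 9.35 CPM and Zbtb7b at 4.76 and 6.13 CPM (means of Utx KO and WT), and neither was called. Cd79a, Ms4a1, Ighm, Pax5, Lyz2, Itgam, Cd14, Adgre1, Siglech, Flt3 and Ncr1 were listed at 0 in all libraries. Cd79b, of B cells, was at 1.34 ± 0.677 CPM in Utx KO and 3.93 ± 1.39 CPM in WT (SD, n = 3 each, log2 fold change −1.09, limma adjusted p = 0.0970). Cd68, of myeloid cells, was at 8.83 ± 1.38 CPM in Utx KO and 6.02 ± 1.28 CPM in WT (0.49, limma adjusted p = 0.331). The groups were separate for both. The part of these marker differences in the other changes was not tested.

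Among the genes grouped here as type I effectors, many of them antiviral, 5 of 16 tested genes fell and 0 rose. The group was set by name and does not tell which interferon acted on these cells. Isg20, an exonuclease that degrades viral RNA (chromosome 7, 78913424 to 78920396), was at 26.2, 22.8 and 25.3 CPM in Utx KO and at 89.0, 84.3 and 84.3 CPM in WT libraries. The groups were far apart, and the log2 fold change of −1.75 (SE 0.13, limma adjusted p = 4.08e-10) was the largest among the 44 genes. Oas3, which makes the oligoadenylates that switch on RNase L, was at 14.7, 16.6 and 14.2 CPM in Utx KO and 34.0, 27.2 and 32.3 CPM in WT (−0.99, SE 0.18, limma adjusted p = 0.000536). Samhd1, a phosphohydrolase that depletes deoxynucleotides, was at 223, 225 and 224 CPM in Utx KO and 323, 307 and 278 CPM in WT (−0.43, SE 0.07, limma adjusted p = 0.000105). The Utx KO libraries lay within 2 CPM of each other, and all were below the lowest WT library.

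The falls of Isg15 and Xaf1 were nearer to the threshold. Isg15, a ubiquitin-like modifier, was at 8.74, 4.57 and 7.41 CPM in Utx KO and 14.6, 11.1 and 13.1 CPM in WT (log2 fold change −0.85, SE 0.27, limma adjusted p = 0.0479). Xaf1, a pro-apoptotic antagonist of XIAP, was at 12.7, 6.85 and 9.88 CPM in Utx KO and 15.4, 19.8 and 17.0 CPM in WT (−0.80, SE 0.24, limma adjusted p = 0.0363). The groups did not overlap for either gene. The call of Isg15 was lost without Utx KO replicate 2 (limma adjusted p = 0.199) or 3 (0.0613) and without WT replicate 1 (0.172), 2 (0.0748) or 3 (0.117). That of Xaf1 was lost without Utx KO replicate 2 (0.170) or 3 (0.0600) and without WT replicate 1 (0.0537), 2 (0.166) or 3 (0.0831). Of 18 alternatives, 10 lost the call of Isg15, among them limma-voom (limma-voom adjusted p = 0.0582), and 8 that of Xaf1.

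The other 11 tested effectors were not called. Rtp4, a chaperone of surface receptors, was at 6.75, 7.42 and 6.18 CPM in Utx KO and 11.9, 12.9 and 9.30 CPM in WT (log2 fold change −0.66, limma adjusted p = 0.126). Eif2ak2 (PKR, a kinase that stops translation on double-stranded RNA) was at 20.8 ± 3.28 CPM in Utx KO and 27.7 ± 3.04 CPM in WT (SD, n = 3 each, limma adjusted p = 0.174). The groups were separate for both. Bst2 (tetherin, which holds budding virus at the cell surface) was at 25.3 ± 4.61 CPM in Utx KO and 28.3 ± 2.57 CPM in WT. Ifi27l2a was at 74.7, 64.5 and 85.2 CPM in Utx KO and 60.5, 63.1 and 68.4 CPM in WT (0.21, limma adjusted p = 0.288). Ifi35 (27.1 ± 5.70 CPM in Utx KO and 23.1 ± 2.88 CPM in WT) and Ifit2 (12.1 ± 4.09 CPM in Utx KO and 10.1 ± 3.56 CPM in WT) also had values above 0, with overlapping groups. The sign of Ifit2 turned without WT replicate 1 (−0.01, against 0.23 with all libraries).

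Many classical antiviral genes were barely detected in either genotype. Ifit1, which binds viral RNA lacking a methylated cap, was at 1.99, 0.571 and 0.618 CPM in Utx KO and 3.16, 1.38 and 3.83 CPM in WT, that is 7 and 18 reads in all. Cmpk2, a mitochondrial nucleotide kinase next to Rsad2 on chromosome 12, was at 1.99, 0.571 and 1.85 CPM in Utx KO and 5.54, 1.84 and 3.28 CPM in WT. Their log2 fold changes of −0.89 and −0.86 had standard errors of 0.45 and 0.43 (limma adjusted p = 0.243 and 0.240). Ifit3 (1.42 and 1.53 CPM), Mx1 (1.17 and 1.67 CPM) and Rsad2 (1.51 and 1.76 CPM, means of Utx KO and WT) were similarly low, and differences of this size were not detectable at this depth. The sign of Ifit3 turned without Utx KO replicate 1 (0.01) or 3 (0.09) or WT replicate 2 (0.06), and that of Rsad2 without Utx KO replicate 3 (0.17) or WT replicate 1 (0.26). Oas1a, Oas2, Oasl1, Oasl2, Mx2 and Ifi44 did not reach 1 CPM in 3 libraries and were not tested. Oas1a had 0 reads in all Utx KO libraries, and 0, 5 and 4 in WT replicates 1, 2 and 3; Oas1g holds 21.1% of the sequence at its 3′ end. Oasl1 had 3, 0 and 1 reads in Utx KO and 0 in all WT libraries. The other 4 had at most 4 reads in any library.

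**Figure D2:**
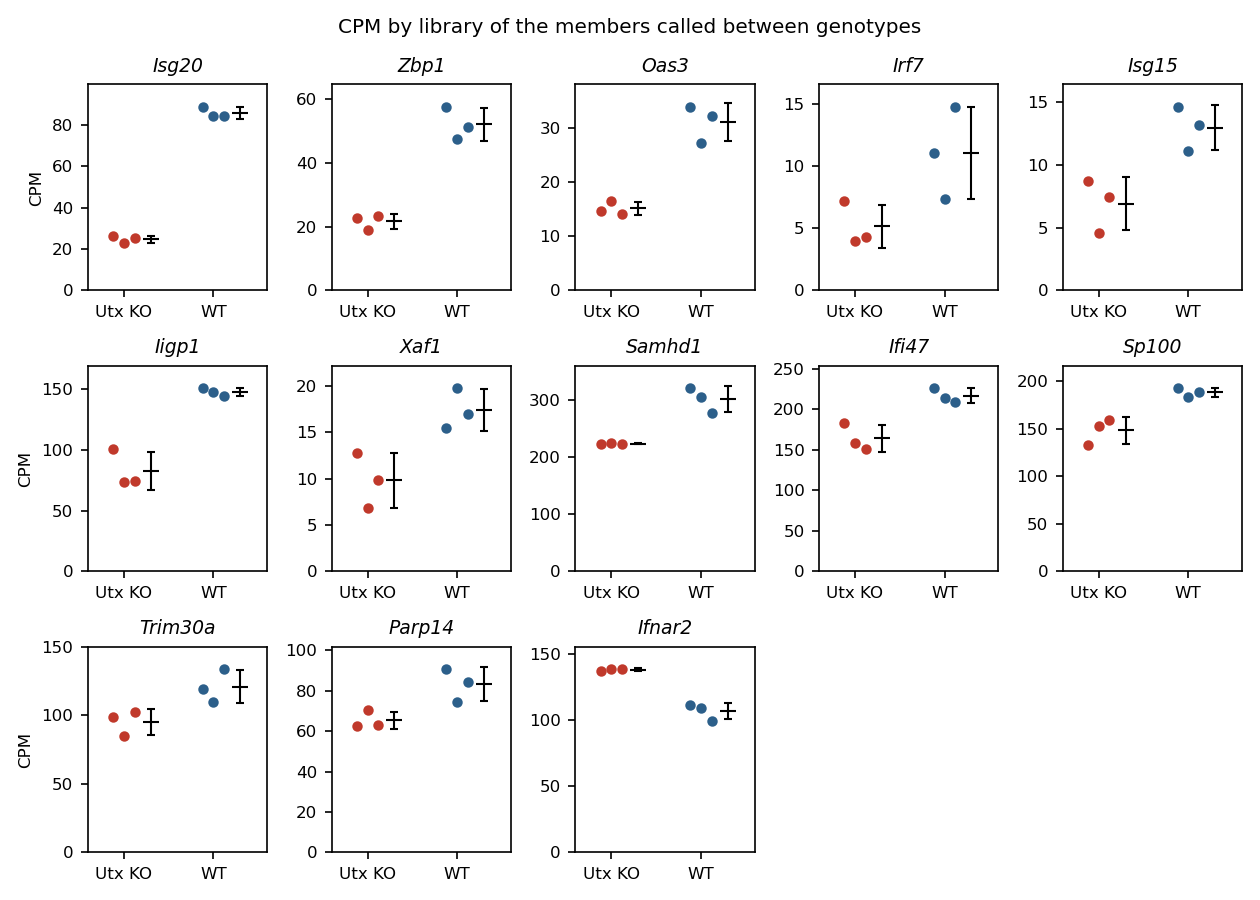
CPM by library of the 13 genes called between genotypes, ordered by fold change, with Utx KO (red) left of WT (blue); each point is a library, and the black marks are the mean and SD of 3 libraries. In each panel the groups do not overlap, with Utx KO lower except for Ifnar2 (137 to 139 CPM in Utx KO, 99.6 to 111 CPM in WT).

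The enzymes that attach or remove ubiquitin, ISG15 and ADP-ribose gave 2 falls and 0 rises among 8 tested genes, and all 8 values were below 0. Trim30a, a ubiquitin ligase that restrains inflammatory signalling, was at 98.5, 84.5 and 102 CPM in Utx KO and 119, 110 and 134 CPM in WT (log2 fold change −0.34, SE 0.10, limma adjusted p = 0.0274). Parp14, an ADP-ribosyltransferase, was at 62.8, 70.3 and 63.0 CPM in Utx KO and 90.9, 74.2 and 84.3 CPM in WT (−0.34, SE 0.11, limma adjusted p = 0.0476). The groups were separate for both, by a few CPM at the nearest points. The call of Trim30a was lost without Utx KO replicate 2 (limma adjusted p = 0.154), WT replicate 1 (0.0668) or WT replicate 3 (0.164). Parp14 lost it without Utx KO replicate 1 (0.102), 2 (0.0516) or 3 (0.121), without WT replicate 1 (0.235) or 3 (0.126), and with the replicate number as a block (0.0647).

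Parp9 and its partner Dtx3l, a ubiquitin ligase, lie head to head on chromosome 16. Their exons overlap on opposite strands at the 5′ ends. The reads come from the 3′ ends, where each shares 0% of its sequence with another gene. Dtx3l was at 206, 224 and 228 CPM in Utx KO and 233, 228 and 251 CPM in WT, and the groups were separate (−0.11, limma adjusted p = 0.376). Parp9 was at 120, 142 and 143 CPM in Utx KO and 150, 139 and 158 CPM in WT, where the groups overlapped (−0.15, limma adjusted p = 0.350). Trim25, the ligase that activates RIG-I, was at 65.1, 59.4 and 56.2 CPM in Utx KO and 67.2, 67.7 and 68.9 CPM in WT (−0.17, limma adjusted p = 0.385). These 3 well-measured genes were not called. Usp18, the protease that strips ISG15 and damps signalling at Ifnar2, was at 5.16, 1.71 and 2.47 CPM in Utx KO and 5.54, 5.07 and 5.47 CPM in WT (−0.71, limma adjusted p = 0.249). Herc6, a ligase for ISG15 in mouse, was at 14.9 ± 2.57 CPM in Utx KO and 16.6 ± 2.17 CPM in WT. Parp12 was at 2.38, 0.571 and 3.71 CPM in Utx KO and 6.72, 1.84 and 2.74 CPM in WT (−0.57, SE 0.45, limma adjusted p = 0.507).

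Both nuclear body genes were lower in value. Sp100, a scaffold of PML bodies, fell to 133, 153 and 159 CPM in Utx KO, against 193, 184 and 188 CPM in WT (log2 fold change −0.35, SE 0.08, limma adjusted p = 0.00559). Pml itself was at 54.4, 64.0 and 58.1 CPM in Utx KO and 68.8, 72.3 and 68.4 CPM in WT, with no overlap but no call (−0.25, SE 0.11, limma adjusted p = 0.186).

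Of the 3 sensors of foreign nucleic acid, Zbp1 fell and the RIG-I-like receptors Ifih1 and Dhx58 were not called. Zbp1, which recognises Z-form nucleic acid and can trigger necroptosis (chromosome 2, 173206612 to 173218923), was at 22.6, 18.8 and 23.5 CPM in Utx KO and 57.7, 47.5 and 51.4 CPM in WT. The highest Utx KO library was well below the lowest WT library (log2 fold change −1.23, SE 0.15, limma adjusted p = 3.63e-06). Ifih1 (MDA5) was at 6.20 ± 1.56 CPM in Utx KO and 6.81 ± 0.769 CPM in WT (SD, n = 3 each, −0.13, SE 0.30). Dhx58 (LGP2) was at 8.75 ± 2.09 CPM in Utx KO and 8.20 ± 1.29 CPM in WT (0.07, SE 0.28), and its sign turned without Utx KO replicate 3 or WT replicate 2.

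The immunity-related GTPases (IRG proteins), which interferon gamma induces and which act at vacuoles of intracellular pathogens in mouse cells, gave 2 falls and 0 rises among 5. Their median log2 fold change was −0.40, next to −0.42 for the 16 effectors and −0.10 for the 6 Stat and Irf genes. No test of the difference between these groups was made. Iigp1 (Irga6), an effector GTPase that coats vacuoles, was at 101, 73.1 and 74.1 CPM in Utx KO and 151, 148 and 144 CPM in WT (−0.84, SE 0.11, limma adjusted p = 4.5e-06). Ifi47 (Irgd) was at 183, 159 and 151 CPM in Utx KO and 227, 215 and 209 CPM in WT (−0.40, SE 0.08, limma adjusted p = 0.00118). In both, all Utx KO libraries were below all WT libraries. Ifi47 shares exon sequence with Olfr56 on its own strand and with Gm12188 on the other.

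The 3 regulatory IRG genes were lower in value but not called. Irgm2 was at 45.3, 39.4 and 32.1 CPM in Utx KO and 55.8, 48.4 and 50.9 CPM in WT (log2 fold change −0.41, SE 0.14, limma adjusted p = 0.0649). Igtp (Irgm3), whose promoter stretch differs from that of Irgm2 at 2 of 51 bases, was at 247, 201 and 219 CPM in Utx KO and 267, 239 and 255 CPM in WT (−0.19, SE 0.08, limma adjusted p = 0.123). Irgm1 was at 12.7 ± 1.56 CPM in Utx KO and 15.8 ± 1.38 CPM in WT (SD, n = 3 each, limma adjusted p = 0.455). Groups were separate for Irgm1 and Irgm2, and for Igtp Utx KO replicate 1 lay above WT replicate 2. Without Utx KO replicate 1, Irgm2 (limma adjusted p = 0.0229) and Igtp (0.0202) passed the threshold. Igtp and Irgm2 overlap on the same strand, but not in the sequence at their 3′ ends.

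**Figure D3:**
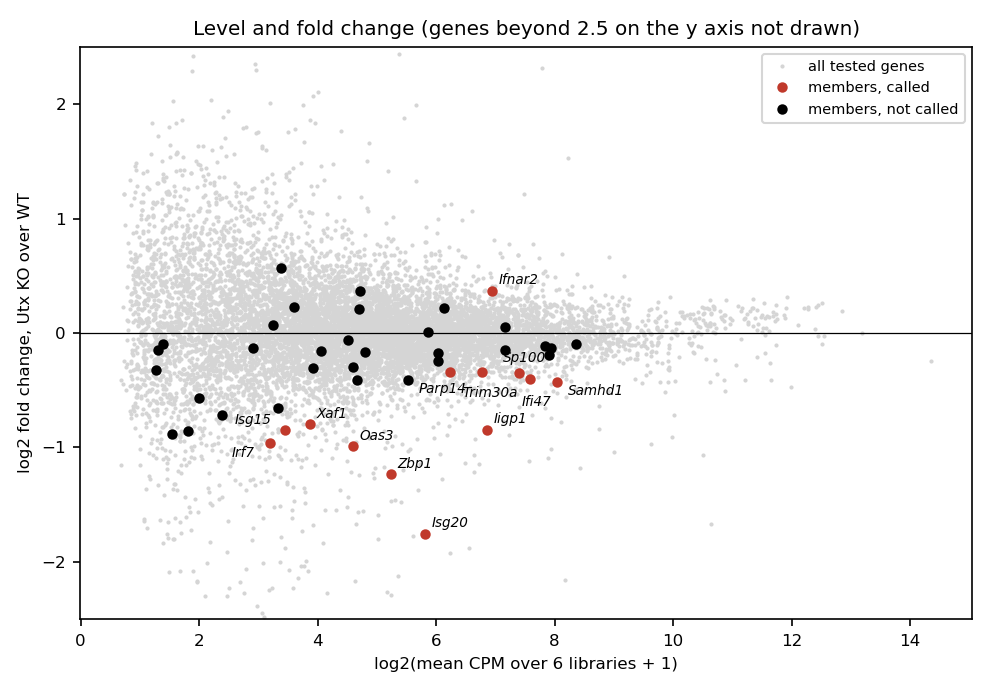
Log2 fold change of Utx KO over WT against log2(mean CPM + 1) for all tested genes (grey) and for the 44 genes described here (red where called, black where not). Isg20, Zbp1, Oas3 and Iigp1 lie below the bulk of genes of their level, and the 9 tested genes under 10 CPM in both groups were not called.

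Of the 6 Stat and Irf regulators, Irf7 fell and the other 5 were not called. Irf7, the factor that amplifies type I interferon production, was at 7.15, 3.998 and 4.32 CPM in Utx KO and 11.1, 7.37 and 14.8 CPM in WT (log2 fold change −0.96, SE 0.31, limma adjusted p = 0.0467). The highest Utx KO library was just below the lowest WT library. The call was lost without Utx KO replicate 2 (limma adjusted p = 0.1499) or 3 (0.118), without WT replicate 1 (0.123) or 3 (0.228), and with edgeR on the recovered reads (edgeR adjusted p = 0.0512). Irf7 also lost it with limma-voom (limma-voom adjusted p = 0.0894), and in 10 of 18 alternatives in all. Irf1, a transcription factor induced by interferon gamma, with the GAS core printed above, was at 273, 215 and 212 CPM in Utx KO and 299, 259 and 212 CPM in WT, with overlapping groups (−0.13, limma adjusted p = 0.483). Irf2, which competes with Irf1 for the same sites, was at 130, 153 and 152 CPM in Utx KO and 142, 140 and 137 CPM in WT (0.05, limma adjusted p = 0.789). Irf9 was at 52.4, 64.0 and 55.0 CPM in Utx KO and 59.7, 50.2 and 60.2 CPM in WT (0.01, SE 0.12), a value near 0 whose sign turned without Utx KO replicate 2 or WT replicate 2 (both −0.07). Stat2, its partner, was at 20.7 ± 2.96 CPM in Utx KO and 25.5 ± 1.90 CPM in WT (SD, n = 3 each, limma adjusted p = 0.352). Irf3, a factor activated by phosphorylation, was at 21.3 ± 0.583 CPM in Utx KO and 22.4 ± 2.96 CPM in WT (−0.06, or 0.04 without WT replicate 2).

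Of the 4 receptor chains, 1 rose and 0 fell. Values were above 0 for 3 of them and below 0 for Ifngr1, with a median log2 fold change of 0.37. Ifnar2, the signalling chain of the type I receptor, was at 137, 139 and 138 CPM in Utx KO and 111, 109 and 99.6 CPM in WT (log2 fold change 0.37, SE 0.09, limma adjusted p = 0.00488). The Utx KO libraries lay within 3 CPM of each other and above all WT libraries. An overlapping gene model, Gm21970, holds 23.9% of its 3′ end sequence and was listed at 0. Ifnar1 was at 29.0, 27.4 and 29.0 CPM in Utx KO and 20.6, 18.9 and 26.8 CPM in WT (0.37, SE 0.18, limma adjusted p = 0.214). Ifngr2, the chain that recruits Jak2, was at 12.3, 11.99 and 9.88 CPM in Utx KO and 7.12, 9.22 and 6.02 CPM in WT (0.56, SE 0.26, limma adjusted p = 0.202). Neither passed, although each Utx KO library was above each WT library for both. Ifngr1, the ligand-binding chain, was at 313, 332 and 301 CPM in Utx KO and 357, 314 and 343 CPM in WT, with overlapping groups (−0.10, limma adjusted p = 0.403).

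Ifnar2, Ifnar1 and Ifngr2 lie in a row on chromosome 16, while Ifngr1 is on chromosome 10. The genes from 100000 bases before Ifnar2 to 100000 bases after Ifngr2 (chromosome 16, 91272783 to 91665623) were therefore looked at, a choice made after the values were seen. Of 8 tested genes in this interval, 1 was called higher and 0 lower, and 7 had values above 0. In 4 every Utx KO library was above every WT library, as for 14.0% of all tested genes. Ifnar2, Ifnar1 and Ifngr2, whose values prompted the choice, are among the 7 and among the 4, and Ifnar2 is the called gene. These counts therefore do not measure the interval apart from those genes. Il10rb, the interleukin 10 receptor chain between Ifnar2 and Ifnar1, was at 30.4 ± 6.75 CPM in Utx KO and 29.9 ± 4.85 CPM in WT (SD, n = 3 each, log2 fold change 0.01, limma adjusted p = 0.980). Tmem50b and Dnajc28, next to Ifngr2, had values of 0.26 and 1.03, the second at no more than 2.47 CPM in any library (limma adjusted p = 0.603 and 0.186). The groups were separate for Dnajc28. Gart and Son, the next genes, had values of 0.02 and −0.12 (limma adjusted p = 0.932 and 0.309).

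Of 18 genes that carry or modulate the signal between receptor and promoter, 1 fell and 2 rose, that is 3 called, where 10.8% of all tested genes were called. Of the ligands, Ifng fell. Of the 19 listed interferon ligands, Ifng alone was detected, and Ifnb1, all 13 listed Ifna genes including Ifnab, Ifne, Ifnk, Ifnl2 and Ifnl3 were listed at 0 in all 6 libraries. Ifng fell to 1.59, 1.14 and 1.24 CPM in Utx KO, against 8.70, 8.76 and 6.02 CPM in WT (log2 fold change −1.91, limma adjusted p = 0.000527). These are 8 reads in all in Utx KO and 52 in WT, so the size depends on the scale: it ran from −2.55 with DESeq2 to −1.01 with a pseudocount of 5, and the call was kept in all 18 alternatives. Jak1, the kinase shared by both receptors, fell to 528, 564 and 555 CPM in Utx KO, against 637, 624 and 669 CPM in WT (−0.23, limma adjusted p = 0.00463). The call of Jak1 was lost without the mean-variance trend (limma adjusted p = 0.244). Ptpn6 (SHP-1), a phosphatase that dampens cytokine and antigen receptor signals, rose to 195, 207 and 208 CPM in Utx KO, against 124, 125 and 131 CPM in WT (0.68, limma adjusted p = 9.56e-07). Stat5b, which serves interleukin 2 signals, rose to 56.0, 74.8 and 64.2 CPM in Utx KO, against 43.9, 49.8 and 52.5 CPM in WT (0.40), a call (limma adjusted p = 0.0436) lost without Utx KO replicate 2 (0.224) or 3 (0.0870) and without WT replicate 1 (0.187), 2 (0.0976) or 3 (0.05001). Jak2 (−0.53, limma adjusted p = 0.0932), Tyk2 (−0.25, 0.503) and the feedback inhibitor Socs1 (0.06, 0.802) were not called. Jak2 passed without Utx KO replicate 3 (−0.75, 0.0175) and with the replicate block (0.0428). The sign of Socs1 turned without Utx KO replicate 1 or WT replicate 2 (both −0.05).

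**Figure D4:**
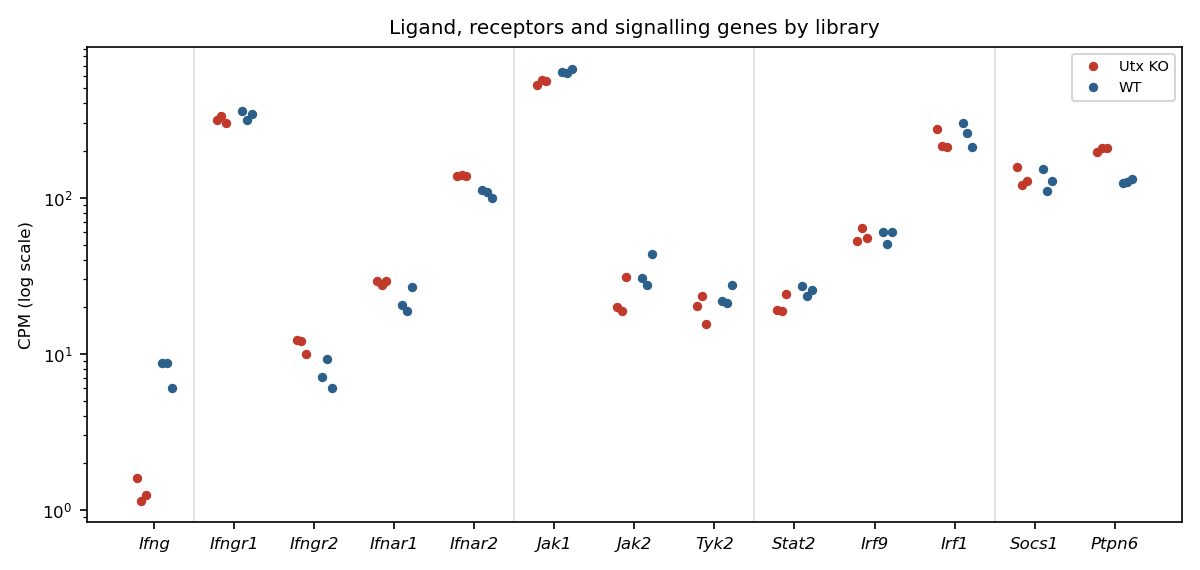
CPM on a log axis by library for the ligand Ifng, the 4 receptor chains, kinases, Stat and Irf factors and 2 inhibitors, with Utx KO (red) left of WT (blue). The groups are separate for Ifng, Ifngr2, Ifnar1, Ifnar2, Jak1 and Ptpn6, and overlap for the others.

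A list of genes outside the 50 holds sensors of DNA and RNA, their adaptors and kinases, and related genes, some interferon-induced themselves. It gave 7 falls and 0 rises among 18 tested, where 5.51% and 5.28% of all tested genes fell and rose. Of the falls, 5 belong to the Ifi200 cluster of DNA-binding proteins on chromosome 1. The spans of Ifi203 and Mndal overlap on the same strand. Sequence shared among these 5 genes was not checked, so their falls may not be separate. Ifi209 fell to 24.6, 32.6 and 25.9 CPM in Utx KO, against 73.5, 59.9 and 88.1 CPM in WT (log2 fold change −1.38), and Ifi206 fell to 21.9, 17.7 and 21.6 CPM, against 52.2, 46.5 and 42.7 CPM (−1.17). Ifi203 (−0.39), Mndal (−0.27) and Ifi213 (−1.09) fell as well. Adjusted p-values of these 5 from limma lay between 5.90e-07 and 0.0219. Of the other listed genes in this stretch of chromosome 1, Ifi204 was at 0.571 to 2.47 CPM in Utx KO and 1.84 to 3.83 CPM in WT and was not called. Aim2, the DNA sensor of an inflammasome and the neighbour of Ifi206, was at 38.9, 39.98 and 32.7 CPM in Utx KO and 51.4, 45.2 and 49.2 CPM in WT, separate but not called (−0.38, limma adjusted p = 0.0798). Ifi213 lost its call without Utx KO replicate 2 (limma adjusted p = 0.116) or WT replicate 2 (0.144), and Mndal without WT replicate 2 (0.0549). DESeq2 did not call Ifi213 (DESeq2 adjusted p = 0.132). Without the mean-variance trend, limma called none of Ifi213, Mndal and Ifi203 (limma adjusted p = 0.106, 0.160 and 0.122). The signalling adaptor of the DNA-sensing pathway, Tmem173 (STING), fell to 77.9, 73.1 and 53.7 CPM in Utx KO, against 112, 112 and 108 CPM in WT (−0.71, limma adjusted p = 0.000142). Ddx58 (RIG-I), a sensor of viral RNA, fell to 34.6, 30.3 and 42.6 CPM in Utx KO, against 66.8, 59.4 and 53.6 CPM in WT (−0.74, limma adjusted p = 0.000889). Tmem173 and Ddx58 also lost their calls without the mean-variance trend (limma adjusted p = 0.07175 and 0.06747). Cgas, Mavs, Tbk1, Ikbke, Myd88 and Nlrc5 were also among the 11 that were not called.

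The calls were also set beside the promoter elements, with no test of the difference. Of 12 tested genes with an ISRE core, 3 fell, 0 rose and 9 were not called, with a median log2 fold change of −0.30. Of 23 tested genes with a window and no ISRE core, 6 fell, 1 rose and 16 were not called, with a median of −0.16. Of 10 tested genes with a GAS core, 2 fell (Isg20 and Samhd1) and 1 rose (Ifnar2), with a median of −0.18. By level, 8 fell and 1 rose of 20 genes at 50 CPM or more in either group, 4 fell of 15 at 10 to 50 CPM, and 0 of 9 under 10 CPM. The shares of all tested genes at these levels were not computed.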

How the data were processed

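Total RNA (500 ng) went into 3′ end libraries (QuantSeq), per the labels' protocols. The authors deposited a table of CPM per library, reads of a gene scaled to a fixed total over the listed genes; the unit was read from the values, whose columns have equal sums. GRCm38 and mm10 are named in the submitters' processing notes; aligner, counter and strand handling were not given in the sources used here. The values, divided by that of 1 read, gave whole reads for 100% of values above 0 (tolerance 0.001). Symbols were found for 25600 of 25655 identifiers.

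Log2(CPM + 1) was fitted with limma-trend (limma 3.58.1, R 4.3.3) with genotype as the only term, on genes with at least 1 CPM in 3 libraries. P-values were two-sided and adjusted by the Benjamini-Hochberg method over all 10590 genes. Fold changes are on that scale, which understates changes of low genes. Alternatives used edgeR 4.0.16, DESeq2 1.42.0 and limma-voom on recovered reads; edgeR called 1151 genes and limma 1142. The fits were tested on simulated counts with a fixed dispersion and changes only in better-expressed genes, so calls of low genes were not covered. Positions come from GENCODE M21 (GRCm38). Exons overlap another gene on the same strand for 9 of the 50 genes and on the other strand for 12; 2 (Oas1a, Ifnar2) share at least 20% of their last 300 transcript bases with another gene, in pieces of 50 bases. Genes and lists were chosen with earlier results of these data known; naming followed calls, level (50 CPM) or fold change (0.5). Values of 2 genes on these lists are not reported here.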

Additional observations from a re-analysis of the deposited data

How the results depend on the processing

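Isg20, Oas3, Zbp1 and Iigp1 kept their calls in all 18 alternatives run. Samhd1, Sp100, Ifi47 and Ifnar2 lost theirs in 1, limma without the mean-variance trend (adjusted p of 0.0762, 0.1496, 0.121 and 0.0944). Isg15, Irf7 and Parp14 each lost theirs in 10 of the 18, Xaf1 in 8 and Trim30a in 5. The count of falls among the 50 genes was 12, and it was 7 with DESeq2 and 4 without the trend, all of them among the 12. Leaving out a library gave 7 to 13 falls, with 7 without Utx KO replicate 2, WT replicate 1 or WT replicate 3, and 1 rise each time. Without the trend 0 rose. Over all tested genes 1142 were called, against 595 with DESeq2, 383 without the trend and 754 to 1042 when a library was left out (754 without WT replicate 2). Among the 37 tested pathway genes outside the 50, 9 fell, against 3 without the trend, and 2 rose, against 1 with DESeq2, limma-voom, a pseudocount of 0.1 or no trend and 1 to 2 when a library was left out. The cause of these losses was not tested.

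Called genes kept their sign in all alternatives. The value of Rsad2 turned to 0.0118 with limma-voom and that of Irf9 to −0.0015 with edgeR, −0.0009 with DESeq2 and −0.0043 with limma-voom. When a library was left out, values ran from −0.0115 to 0.5174 for Ifit2, −0.5377 to 0.0889 for Ifit3, −0.4923 to 0.2632 for Rsad2, −0.0945 to 0.1916 for Dhx58, −0.1148 to 0.0423 for Irf3, −0.0735 to 0.0682 for Irf9 and −0.0511 to 0.1838 for Socs1. TMM and quantile scaling gave 12 and 11 falls, and moved the median of all genes by under 0.1.

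Replicate numbers do not pair the samples by the labels. Deviations from the group means correlated at 0.01, −0.00 and −0.01 for the same-numbered libraries. With the replicate block 11 of the 12 falls were called, all but Parp14, and 1065 genes in all.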
